A study of Rattus norvegicus with 6 samples.

Results

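The regions described here are the differentially methylated regions (DMRs) annotated to cytokine, Toll and NF-kB signalling genes in brain microvascular endothelial cells (BMECs) of the rat hippocampus. They were chosen by gene symbol alone: symbols of the Traf, Tlr, Irak, Irf, Ccl, Ccr, Cxcl, Cxcr, Stat, Jak and Il series (Il1rapl genes left out), symbols beginning with Tnfrsf, Tnfsf, Tnfaip, Nfkb or Socs, and Rela, Relb, Rel, Tnf, Ifngr1, Ifnar1 and Myd88. By this rule 75 regions in 54 genes were found among 24862 annotated regions, of which 12262 were annotated to a gene. The study's methods state a limit of 10 percentage points for a DMR. Only 25 of the 75 regions, and none in the CHG context, reached it. The others are called DMRs here because the authors listed them. A region was counted once for each stretch of the genome and sequence context.

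To examine how chronic stress alters the methylome of the blood–brain barrier, the study sorted CD45-/CD31+ cells from the hippocampus of 3 stressed and 3 unstressed animals and sequenced their DNA after enzymatic conversion. All animals were adult male Sprague-Dawley rats, obtained at an age of 6 weeks. The CUMS group went through 8 weeks of chronic unpredictable mild stress, with a randomly chosen stressor each day (restraint, food and water deprivation, a tilted cage, wet bedding, cold swimming or continuous light), and the Ctrl group stayed undisturbed in its home cages. CD31 is carried by endothelium and CD45 by blood-derived cells, and only DNA methylation was measured in these samples, so the endothelial identity of the sorted cells could not be checked against expressed markers here. For each region a single methylation level per group was deposited, combined over the 3 rats. Variation between the rats is thus hidden, the number of reads behind a region's level was not given in the tables, and none of the differences below has an error or a test.

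Toll receptors and the receptors for interleukin-1 pass their signal through Myd88, Irak kinases and Traf adaptors to the NF-kB factors, which are held in the cytoplasm by inhibitor proteins until those are degraded. Most other interleukin receptors and the interferon receptors signal through Jak kinases and Stat factors, with Socs proteins as feedback inhibitors. In brain endothelium these routes are known for the induction of adhesion molecules and chemokines during inflammation. Cytosine methylation in mammals lies mostly in the CG context, and CpG islands, short stretches dense in CG that cover many gene starts, are mostly unmethylated. CHG and CHH cytosines (H is any base but G) are methylated at low levels in most cell types.

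Gene starts with a CG region were found for Rela, Rel, Irf8 and Il10ra, and the promoter of Il22ra1 carried the largest difference among the 32 CHH regions. The sequence around these starts is given to show their CG content. The CG regions of the first 4 genes lay in CpG islands, and the CHH region of Il22ra1 lay outside islands. A contrast in CG content thus largely follows from this choice of genes and is not a result of these data. Each is the RefSeq window of 300 bases on the GRCr8 assembly, from 250 bases before the start to 50 bases after it, written 5′ to 3′ on the strand of the gene with every CG dinucleotide in capitals. The DMRs were placed on another assembly, mRatBN7.2, and their position within these windows was not determined. In order, the windows lie at chr1:212354086-212354385 (plus strand), chr14:101921889-101922188 (minus), chr19:65699034-65699333 (plus), chr8:54474737-54475036 (minus) and chr5:153244817-153245116 (plus).
Rela: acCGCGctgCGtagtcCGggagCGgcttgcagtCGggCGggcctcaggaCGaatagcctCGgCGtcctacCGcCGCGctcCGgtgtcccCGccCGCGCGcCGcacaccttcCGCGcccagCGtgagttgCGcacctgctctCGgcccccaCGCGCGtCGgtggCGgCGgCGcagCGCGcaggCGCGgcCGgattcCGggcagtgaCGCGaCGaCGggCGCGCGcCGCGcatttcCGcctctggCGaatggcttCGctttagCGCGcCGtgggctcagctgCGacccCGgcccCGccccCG
Rel: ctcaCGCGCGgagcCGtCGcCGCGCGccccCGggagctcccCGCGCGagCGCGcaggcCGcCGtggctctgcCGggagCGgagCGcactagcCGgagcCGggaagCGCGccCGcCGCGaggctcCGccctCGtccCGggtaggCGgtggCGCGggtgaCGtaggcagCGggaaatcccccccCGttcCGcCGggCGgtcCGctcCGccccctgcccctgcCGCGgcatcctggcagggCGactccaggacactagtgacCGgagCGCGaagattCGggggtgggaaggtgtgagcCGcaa
Irf8: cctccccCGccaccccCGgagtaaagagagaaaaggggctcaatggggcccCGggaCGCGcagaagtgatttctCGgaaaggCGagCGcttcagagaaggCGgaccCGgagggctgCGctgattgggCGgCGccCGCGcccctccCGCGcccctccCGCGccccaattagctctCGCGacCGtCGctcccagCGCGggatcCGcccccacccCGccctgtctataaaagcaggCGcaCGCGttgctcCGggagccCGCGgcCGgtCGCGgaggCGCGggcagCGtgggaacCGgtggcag
Il10ra: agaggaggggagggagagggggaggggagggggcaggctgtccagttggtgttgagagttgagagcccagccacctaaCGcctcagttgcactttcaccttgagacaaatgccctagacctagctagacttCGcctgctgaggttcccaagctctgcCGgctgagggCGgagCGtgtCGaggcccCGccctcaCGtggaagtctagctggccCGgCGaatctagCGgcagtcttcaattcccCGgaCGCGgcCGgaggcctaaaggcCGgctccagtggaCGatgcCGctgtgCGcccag
Il22ra1: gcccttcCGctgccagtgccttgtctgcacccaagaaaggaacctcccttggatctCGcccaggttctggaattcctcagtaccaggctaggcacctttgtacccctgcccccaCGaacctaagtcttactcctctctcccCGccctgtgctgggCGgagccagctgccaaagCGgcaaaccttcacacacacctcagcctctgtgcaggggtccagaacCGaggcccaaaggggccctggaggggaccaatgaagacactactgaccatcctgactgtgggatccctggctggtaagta
The Rela window held 56 CG dinucleotides, more than 99.8% of the 33469 rat promoter windows of the same length, and the Rel window held 48, more than 99.0%. Irf8 had 40 and Il10ra 19, whereas Il22ra1 had 7, which is the median of all windows. A search of both strands for the interferon-response GAS motif TTCNNNGAA found 2 sites in the Irf8 window and none in the other 4. GAS was present in 8.87% of all windows. The NF-kB binding motif, whose letters are not given here, was found at 4 positions for Rel and at 1 for Il22ra1. Matching positions may overlap each other, so those of Rel need not be separate sites. Of all windows, 7.51% held the motif. No match of the 2 motifs overlapped. These matches describe letters in the window and not bound sites.

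Of the 75 regions, 61 were hypermethylated (level higher in CUMS) and 14 were hypomethylated (level lower in CUMS). The hypermethylated share was 81.3%, close to the 78.1% of all regions annotated to a gene. Of the CG regions, 24 had the higher and 1 the lower level in CUMS (96.0% hypermethylated), beside 87.7% of all CG regions in genes. Of the CHG regions there were 14 and 4 (77.8%, beside 69.3%), and of the CHH regions 23 and 9 (71.9%, beside 77.5%). Higher levels in CUMS thus predominated here much as among all regions annotated to a gene, and these shares are not a result about cytokine genes.

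**Figure D1:**
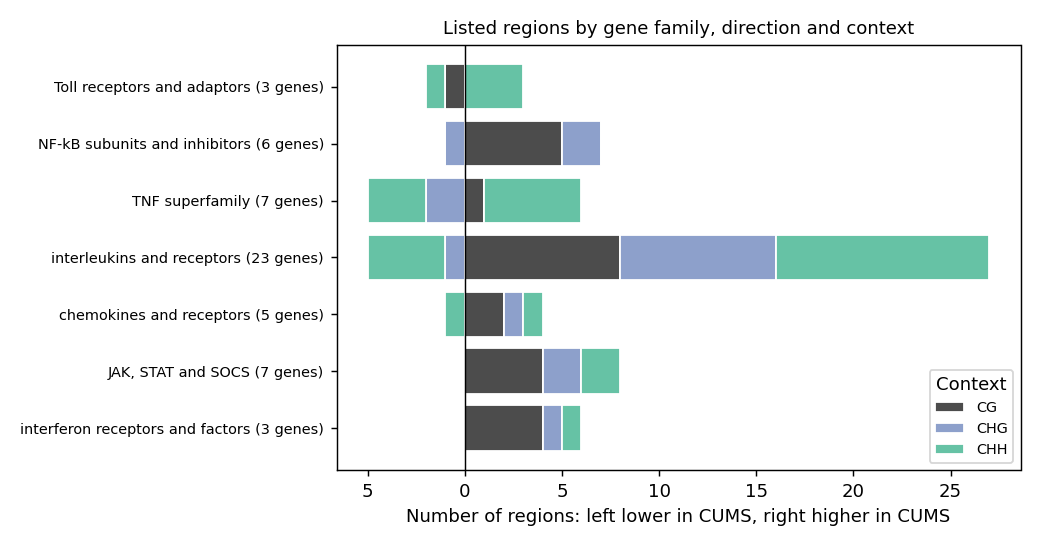
Number of DMRs in each gene family by direction and sequence context. Bars to the right of 0 count regions with a higher level in CUMS and bars to the left regions with a lower level. The JAK, STAT and SOCS genes (8 regions) and the interferon group (6 regions, 2 of them of Irf2bpl) lay wholly on the right. The group labelled TNF superfamily, which also counts Tnfaip genes, was divided into 6 and 5. Of all regions in genes, 78.1% were higher in CUMS.

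The regions were also counted by family, to be read beside the hypermethylated share of 78.1% over all regions in genes. The NF-kB subunits and inhibitors had 7 hypermethylated regions and 1 hypomethylated one, the interleukins and their receptors 27 and 5, and the chemokines and their receptors 4 and 1. All 8 regions of the JAK, STAT and SOCS genes and all 6 of the interferon group were hypermethylated. Of these 6, 2 belonged to Irf2bpl, a relative of the Irf2-binding proteins that was taken in by its symbol. The TNF group (TNF ligands, receptors and Tnfaip genes) had 6 and 5, and the Toll adaptors 3 and 2. These counts are small, and differences between families were not tested. The families also differed in context. CG regions, of which 87.7% were hypermethylated over all genes, made up 5 of 8 in the NF-kB group and 4 of 8 in the JAK, STAT and SOCS group. They made up 4 of 6 in the interferon group and 1 of 11 in the TNF group. Direction by family therefore cannot be told apart from context. The share of genes with any region also varied. RefSeq lists 238 protein-coding rat genes under the rule, and 54 of them (22.7%) had an annotated region, beside 25.9% of all 23154 protein-coding symbols. By family it was 6 of 12 in the NF-kB group, 7 of 17 in the JAK, STAT and SOCS group, 23 of 79 interleukin genes and 3 of 14 in the interferon group. It was 7 of 38 in the TNF group, 5 of 49 chemokine genes and 3 of 29 Toll genes. None of the 13 Toll receptors, none of the 11 Ccr receptors and neither Myd88, Tnf, Ifnar1 nor Ifngr1 had an annotated region. Most genes of any kind had none. Of the 145823 CHH regions of the full list, 135827 were left out of the annotated list. CHH regions in these genes may therefore be missed. Gene lengths were not compared.

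The size of the differences was compared next. The median difference between the groups was 10.7 percentage points for the CG regions (range 4.69 to 28.3), beside 13.9 for all CG regions in genes. For CHG it was 3.39 points, beside 4.10, and for CHH 7.41, beside 7.05. A difference of at least 10 points was reached by 25 of the 75 regions (33.3%), beside 33.2% of all regions in genes. Among CG regions it was 14 of 25 (56.0%, beside 70.1%), and among CHH regions 11 of 32 (34.4%, beside 27.8%). No CHG region reached it.

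Direction was then compared by position. Of the 25, 18 lay in CpG islands, and 17 of these were hypermethylated (94.4%, beside 97.8% of island CG regions in genes). All 5 CG regions of the open sea, more than a shelf away from any island, were hypermethylated, beside 62.2%. With 5 regions this share has little weight. All 9 CG regions at a promoter (as annotated by the authors, whose window is not given in the sources used here) were hypermethylated, beside 96.9%, and over all contexts all 15 promoter regions were, beside 88.8%. None of the 14 hypomethylated regions thus lay at a promoter, beside 257 of the 2690 hypomethylated regions in genes. With 14 regions this too has little weight.

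**Figure D2:**
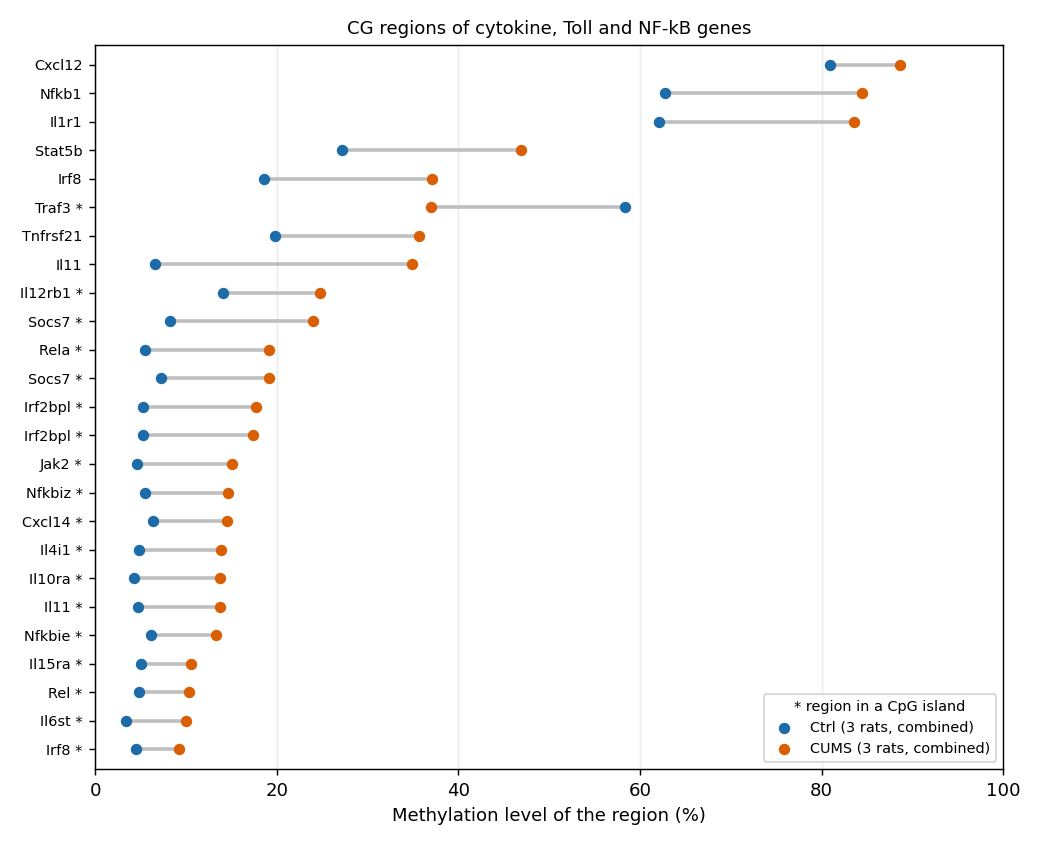
Methylation level of the 25 CG regions in Ctrl (blue) and CUMS (orange), 1 line per region, on an axis in percent, with an asterisk for regions in a CpG island. Each point is a single value combined over 3 rats, so there are no error bars. The 17 hypermethylated island regions lay between 3.35% and 14.1% in Ctrl and between 9.19% and 24.8% in CUMS, and Traf3 was the only CG region with a lower level in CUMS.

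The NF-kB group was examined first. Rela encodes p65, the main transactivating subunit. Its CG region at the transcription start (chr1:202924905-202925096, 192 bp with 68 cytosines, reaching from the promoter into an intron, in a CpG island) stood at 19.2% in CUMS against 5.53% in Ctrl. The difference was 13.6 points, and the CUMS level was 3.46 times that of Ctrl. Rel encodes c-Rel, the subunit best known from lymphocytes. Its start region (chr14:97720888-97720977, 33 cytosines, CpG island) had 10.4% in CUMS against 4.79% in Ctrl, a difference of 5.56 points. Both gene starts had low levels in either group and a higher one in CUMS, and by size of the difference they ranked 1677th and 3379th of the 3531 hypermethylated CG regions in genes.

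Nfkb1, which encodes the p105 precursor of p50, differed in another setting. Its region lay in an intron of the open sea (chr2:224041007-224041081) and held only 5 cytosines, with 84.4% in CUMS against 62.7% in Ctrl. The difference of 21.7 points was the second largest of the hypermethylated CG regions here. Nfkb2, the gene of the p100 precursor of p52, had only a CHG region in an intron, at 2.81% in CUMS against 0.0375% in Ctrl. Among the inhibitors, Nfkbie (IkB-epsilon) carried 3 regions between chr9:15439022-15439154 and chr9:15443964-15444066. Its CG region had 13.3% in CUMS against 6.13% in Ctrl. Of its CHG regions, one was at 5.63% in CUMS against 0.0191% in Ctrl, and the other went the opposite way, at 0.0258% in CUMS against 3.62% in Ctrl. This stretch was also annotated to Slc35b2 and Aars2, so it cannot be assigned to Nfkbie alone. The nuclear inhibitor gene Nfkbiz had an exonic island region at 14.6% in CUMS against 5.46% in Ctrl. No annotated region was found for Relb, Nfkbia, Nfkbib, Nfkbid, Nfkbil1 or Tnfaip3.

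Next, the Toll and TNF receptor adaptors were considered. Traf3, a ubiquitin ligase that restrains the alternative NF-kB route and takes part in interferon induction, had regions of both directions. Its intronic CG region (chr6:130281141-130281401, 77 cytosines, in a CpG island and its shore) had 36.9% in CUMS against 58.4% in Ctrl. The level was lower in CUMS by 21.5 points, the only such case among the 25 CG regions, and the difference ranked 196th of 497 hypomethylated CG regions in genes. It was also the only CG region over a repeat, a B1 element. The 2 CHH regions of Traf3 were higher in CUMS, with 26.6% in CUMS against 0.398% in Ctrl (chr6:130215307-130215585, over an endogenous retrovirus) and with 11.4% in CUMS against 0.123% in Ctrl (chr6:130238456-130238747). They lay 65.6 and 42.4 kb from the CG region, and no other listed region lay within 10 kb of the CG region. The first of them ranked 55th of 3169 hypermethylated CHH regions in genes and also overlapped another annotated gene.

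Irak3 encodes a pseudokinase that inhibits Toll signalling. Its intronic CHH region (chr7:55684011-55684341) had 0.0559% in CUMS against 7.45% in Ctrl, and both other listed regions within 10 kb went the opposite way. Irak2, a kinase that sustains the signal, had 14.5% in CUMS against 3.09% in Ctrl. It was the only CHG or CHH region of the 50 in which the lower group was above 1%. Irak1, Irak4 and Traf6, the common core of the route, had no annotated region.

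**Figure D3:**
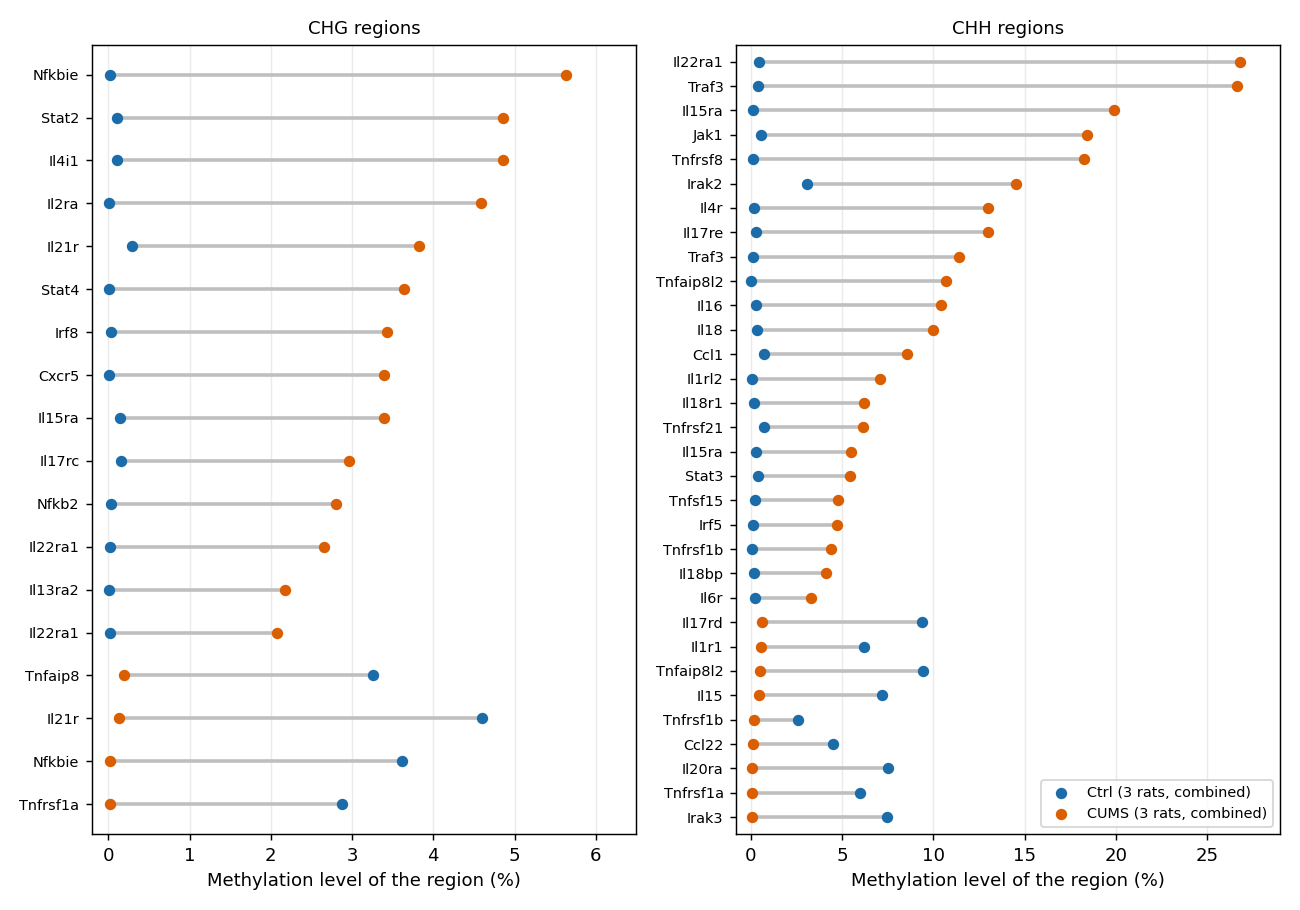
Methylation level of the 18 CHG regions (left) and 32 CHH regions (right) in Ctrl (blue) and CUMS (orange), 1 line per region, on axes in percent that differ between the panels. Each point is a single value combined over 3 rats. In every region but that of Irak2, the lower group was below 1%.

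The TNF group, which counts Tnfaip genes together with the ligands and receptors of the TNF superfamily, was the most evenly divided. Tnfaip genes held 3 of its 11 regions, and the ligand and receptor genes alone were less evenly divided. Tnfrsf1a encodes the TNF receptor through which most inflammatory effects of TNF run, and both of its regions were lower in CUMS. Its CHG region had 0.0192% in CUMS against 2.87% in Ctrl, and its CHH region, 733 bp away at chr4:158153483-158153737, had 0.0630% in CUMS against 5.97% in Ctrl. Around the latter, 4 of 7 other listed regions within 10 kb were lower in CUMS. These 4 included the CHG region just described and a CHH region that overlapped it, so they are not independent of it. The second TNF receptor, Tnfrsf1b, had 1 CHH region of each direction, 14.7 kb apart, with 4.37% in CUMS against 0.0828% in Ctrl at the first and 0.199% in CUMS against 2.55% in Ctrl at the second. Thus the 4 regions of the TNF receptor genes comprised 3 with a lower and 1 with a higher level in CUMS, all in non-CG contexts and all below 6% in both groups.

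Tnfrsf21, or death receptor 6, which is known from brain vessel development, had 35.6% in CUMS against 19.8% in Ctrl at an intronic CG region, and 6.11% in CUMS against 0.722% in Ctrl at a CHH region 16.2 kb away. Tnfrsf8 (CD30) had an intronic CHH region at 18.3% in CUMS against 0.113% in Ctrl. Tnfaip8l2 (TIPE2), a negative regulator of Toll and T cell receptor signalling, held 2 CHH regions 1417 bp apart with opposite directions. One had 0.495% in CUMS against 9.44% in Ctrl, and the other had 10.7% in CUMS against 0.0229% in Ctrl. Its relative Tnfaip8 had a CHG region with 0.197% in CUMS against 3.25% in Ctrl. The vascular ligand gene Tnfsf15 had an intronic CHH region at 4.75% in CUMS against 0.215% in Ctrl.

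The interleukin genes held the most regions. Il10ra, the signalling chain of the receptor for the anti-inflammatory interleukin-10, had its CG region at the transcription start (chr8:45577997-45578097, CpG island), with 13.7% in CUMS against 4.26% in Ctrl. Il11, a cytokine of the interleukin-6 family, had 2 CG regions 753 bp apart, both annotated to promoter and intron. The one in the island shore (chr1:69069609-69069659, 10 cytosines) had 34.9% in CUMS against 6.59% in Ctrl. This 28.3-point difference was the largest of all 75 regions and ranked 217th of 3531. The second Il11 region had 13.7% in CUMS against 4.77% in Ctrl. Both were also annotated to Tmem238. Il1r1, the receptor that conveys interleukin-1 signals in brain endothelium, had an intronic CG region of the open sea at 83.6% in CUMS against 62.0% in Ctrl (chr9:42552617-42552719). An intronic CHH region 21.2 kb away in the same gene had 0.581% in CUMS against 6.20% in Ctrl, so the gene carried regions of both directions.

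Il15ra, which presents interleukin-15 on the cell surface, was the gene with the most regions. Its 4 regions on chromosome 17 were all hypermethylated and covered all 3 contexts. The CHH regions had 19.9% in CUMS against 0.0963% in Ctrl (chr17:66829200-66829497) and 5.51% in CUMS against 0.257% in Ctrl. The CHG region had 3.39% in CUMS against 0.143% in Ctrl, and the intronic CG island region had 10.6% in CUMS against 5.03% in Ctrl. The neighbouring gene Il2ra, the alpha chain of the interleukin-2 receptor, had a CHG region 42.0 kb from the last of these, at 4.58% in CUMS against 0.0129% in Ctrl. The ligand gene Il15 on chromosome 19 went the other way, with 0.436% in CUMS against 7.20% in Ctrl at an intronic CHH region.

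Il22ra1, a receptor chain best known from epithelial barriers, had a CHH region at its promoter (chr5:147959123-147959423, 123 cytosines, over an ID element). Its level was 26.8% in CUMS against 0.419% in Ctrl, a difference of 26.3 points that ranked 54th of 3169. The gene also held 2 hypermethylated CHG regions in introns, with 2.08% and 2.66% in CUMS and at most 0.0201% in Ctrl. In Il4i1, a secreted amino acid oxidase, a CHG region at a promoter had 4.86% in CUMS against 0.109% in Ctrl, and a CG region 19.5 kb away, shared with Atf5 and Nup62, had 13.8% in CUMS against 4.83% in Ctrl. Il21r carried 2 CHG regions of opposite direction 8.56 kb apart, with 3.82% in CUMS against 0.297% in Ctrl at one and 0.132% in CUMS against 4.60% in Ctrl at the other.

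Lower levels in CUMS were found at CHH regions of 2 more receptor genes. Il17rd, a receptor-like gene that also dampens growth factor signalling, had 0.635% in CUMS against 9.39% in Ctrl. Il20ra, a chain of the interleukin-20 receptor, had 0.0795% in CUMS against 7.50% in Ctrl. With these, all 5 hypomethylated regions of the interleukin genes have been described. The remaining 12 genes (Il12rb1, Il6st, Il13ra2, Il17rc, Il16, Il17re, Il18, Il18bp, Il18r1, Il1rl2, Il4r and Il6r) each had 1 region. That all of these were hypermethylated follows from the order of description and is not a separate result. Il16 and Il18 are ligands, Il18bp binds and blocks interleukin-18, and the others are receptor chains. Il12rb1 and Il6st, which encodes the shared gp130 chain, had CG island regions with 24.8% in CUMS against 14.1% in Ctrl and with 10.0% in CUMS against 3.35% in Ctrl. The CHG regions of Il13ra2 and Il17rc had 2.18% and 2.96% in CUMS, and the CHH regions of the others ranged from 3.30% in CUMS at Il6r to 13.0% at Il4r, all with less than 1% in Ctrl.

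The chemokine genes had 1 region each. Cxcl12, the ligand of Cxcr4 that endothelium displays, had the highest CG level of all members, 88.6% in CUMS against 80.9% in Ctrl, in its 3′ untranslated region. Cxcl14, a chemokine made by many resting tissues, had an island region at 14.5% in CUMS against 6.40% in Ctrl. Ccl1 and Ccl22 are attractants of T cells. The CHH region at the promoter of Ccl1 had 8.54% in CUMS against 0.723% in Ctrl, whereas an exonic CHH region of Ccl22 had 0.132% in CUMS against 4.49% in Ctrl. A CHG region in an intron of Cxcr5, the receptor for B cell homing, had 3.39% in CUMS against 0.0114% in Ctrl.

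The JAK, STAT and SOCS genes were then examined, and all of their regions had higher levels in CUMS. Jak2, the kinase of many cytokine receptors, had a promoter CG region in an island (chr1:226994727-226994843, 36 cytosines) at 15.1% in CUMS against 4.63% in Ctrl. Jak1, its partner at interferon and interleukin-6 receptors, had a promoter CHH region (chr5:115890320-115890547, over repeats) at 18.4% in CUMS against 0.569% in Ctrl. The Jak2 promoter window held 47 CG dinucleotides, more than 98.7% of windows. Stat factors carry the signal of these kinases to the nucleus. Stat5b had an intronic CG region of the open sea at 46.9% in CUMS against 27.2% in Ctrl. Stat3, 77.5 kb from it on chromosome 10, had a CHH region at 5.42% in CUMS against 0.391% in Ctrl.

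Socs7, an adaptor of the suppressor family, had 2 CG regions only 74 bp apart in one CpG island. They had 19.1% in CUMS against 7.29% in Ctrl, and 24.0% in CUMS against 8.25% in Ctrl, and are in effect 1 stretch. Stat2, which acts in the interferon response, and Stat4, which acts downstream of interleukin-12, carried CHG regions with 4.86% and 3.64% in CUMS against 0.101% and 0.0102% in Ctrl. The Stat2 region lay at its promoter and was also annotated to Apof.

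Among the interferon genes, Irf8, a factor best known from myeloid cells and microglia, had 3 regions on chromosome 19. At the transcription start (chr19:48790488-48790589, 31 cytosines, CpG island) the level was 9.19% in CUMS against 4.50% in Ctrl, the smallest difference of the CG regions. In the island shelf 3.54 kb further on (chr19:48794126-48794296) it was 37.1% in CUMS against 18.5% in Ctrl, and at an intronic CHG region it was 3.43% in CUMS against 0.0269% in Ctrl. Irf2bpl, a relative of the Irf2-binding proteins, had 2 CG island regions 1.50 kb apart, one at the promoter at 17.7% in CUMS against 5.24% in Ctrl and one in the exon at 17.4% in CUMS against 5.26% in Ctrl. Irf5, a factor downstream of Toll receptors, had a CHH region at 4.73% in CUMS against 0.113% in Ctrl.

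CG and non-CG regions thus described different kinds of difference. The hypermethylated CG regions had a median of 17.5% in CUMS against 5.83% in Ctrl. For CHH the medians were 9.97% in CUMS against 0.240% in Ctrl, and for CHG 3.41% in CUMS against 0.0235% in Ctrl. In the 9 hypomethylated CHH regions the medians were 0.199% in CUMS against 7.20% in Ctrl, and in the 4 hypomethylated CHG regions 0.0791% in CUMS against 3.44% in Ctrl. In all 18 CHG regions and in 31 of 32 CHH regions the lower group was under 1%, as in 99.2% and 92.0% of CHG and CHH regions in genes. A non-CG region therefore had a higher deposited level in one group and, Irak2 apart, a level under 1% in the other. How the levels were derived from reads was not given, so a very low level need not be a plain share of reads. How many of the 3 rats contributed to a difference is also unknown. Levels above 1% in both groups, as at Stat5b or Traf3, occurred in all 25 CG regions and otherwise only at Irak2.

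Repeats overlapped 16 of the 32 CHH regions, beside 47.3% of all CHH regions in genes. The count was 6 of the 18 CHG regions (33.3%, beside 38.1%) and 1 of the 25 CG regions (4.0%, beside 13.2%). Over all contexts the count was 23 of 75 (30.7%), beside 33.0% of regions in genes. The CHH regions were longer than the others, with a median of 292 bp and 142 cytosines. The medians were 103 bp and 23 cytosines for CG and 109.5 bp and 23 cytosines for CHG. Over all regions in genes the median lengths were 274 bp for CHH, 108 bp for CG and 100 bp for CHG. Annotated CHH regions were those with the largest absolute score of the authors, so this length need not hold for the CHH regions left out.

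To see whether neighbouring DNA moved the same way, all 160692 regions of the full list were used, since most of its CHH regions had not been annotated. Within 10 kb of 56 of the 75 regions lay 160 further regions, counted once for each member they neighboured. Of these, 106 had the direction of the member (66.3%), beside 67.0% around all regions in genes. Around hypermethylated members it was 73.0%, beside 72.3%, and around hypomethylated members 14 of 34 (41.2%, beside 48.1%). These shares lay close to those around other genes, and most neighbours of the hypomethylated members were higher in CUMS. Where a member overlapped a region of another context, 12 of 12 pairs had the same direction, beside 98.6% of such pairs around all regions in genes. A CHH region overlapped 11 of the 18 CHG regions (61.1%, beside 72.0%).

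**Figure D4:**
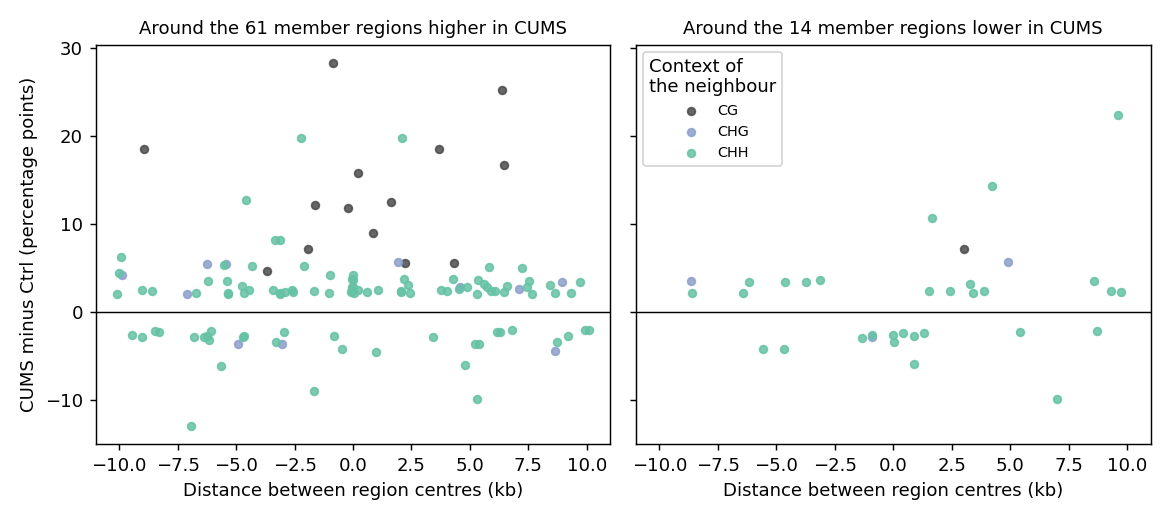
Difference in methylation level (CUMS minus Ctrl, percentage points) of further listed regions within 10 kb of a member, against the distance between region centres in kb, coloured by context. Around the 61 hypermethylated members (left) 73.0% of the points lay above 0, and around the 14 hypomethylated members (right) 41.2% lay below 0.

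Several members were neighbours in receptor gene clusters. The 5 regions of Il15ra and Il2ra were all hypermethylated. On chromosome 9, Il1rl2 and Il18r1 had hypermethylated CHH regions, whereas Il1r1 had a region of each direction. On chromosome 4, the CHH region of Il17re and the CHG region of Il17rc were 4.27 kb apart and both hypermethylated. Il4r and the first Il21r region on chromosome 1 (38.8 kb apart) were both hypermethylated, and the second Il21r region was not. Likewise on chromosome 5, Tnfrsf8 and the first Tnfrsf1b region (53.6 kb apart) were both hypermethylated, and the second Tnfrsf1b region (38.5 kb from Tnfrsf8) was not. Of the 54 member genes, 41 had hypermethylated regions only, 7 had hypomethylated regions only, and 6 had both (Il1r1, Il21r, Nfkbie, Tnfaip8l2, Tnfrsf1b and Traf3). As 39 of the 54 had a single region, they could show only 1 direction. The 6 with both were among 15 genes with 2 or more regions. The same share over other genes was not computed, so these counts are not a result about cytokine genes. Regions of 1 gene or cluster share their DNA and are not independent of each other.

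Other genes of these routes, taken from a list of 86 genes outside the rule, had 37 regions in 27 genes (31.4%, beside the 25.9% of all protein-coding symbols). The list held kinases and adaptors of the NF-kB, Nod and p38 routes, Pias and Peli genes, colony-stimulating factors, the leukaemia inhibitory factor family, atypical chemokine receptors and adhesion molecules. Of the regions, 29 were hypermethylated (78.4%, beside 78.1% of all regions in genes) and 8 hypomethylated, with 11 and 1 in the CG context, 10 and 3 in CHG, and 8 and 4 in CHH. Among the genes with a region were Bcl3, Birc2, Cntfr, Crlf2, Csf1, Csf1r, Csf2ra, Cx3cl1, Ikbkb, Lepr, Lifr, Mapk14, Mapk8, Nlrp3, Nod1, Osm, Osmr, Peli1, Peli2, Pias1, Pias2, Ptpn11, Ripk2, Stam2 and Tab2. The kinase gene Ikbkb, which encodes the IKK-beta subunit that releases NF-kB, had the largest CG difference of the list, with 70.1% in CUMS against 41.0% in Ctrl. Mapk14, the p38 kinase, had 16.0% in CUMS against 4.65% in Ctrl at its promoter and 10.7% in CUMS against 25.3% in Ctrl in an intron, the only hypomethylated CG region of the list. At the start of Mapk8, the JNK1 kinase, the level was 19.1% in CUMS against 5.67% in Ctrl. The promoter of Osm, a cytokine of the interleukin-6 family, had a CHH region at 22.3% in CUMS against 0.341% in Ctrl. Ikbkb, Mapk14, Mapk8 and Osm were singled out after their values were seen.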

How the data were processed

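DNA methylation was measured in BMECs of 3 CUMS and 3 Ctrl rats, grouped by their titles. Per the study's methods and the submitters' processing notes, libraries were made after TET2 and APOBEC3A treatment, checked with FastQC 0.11.3, trimmed with fastp 0.20.0 and aligned with Bismark 0.16.3 (Bowtie2) to mRatBN7.2, and DMRs were called with DSS on CUMS against Ctrl. Cytosines left unconverted are read as methylated, which raises measured levels.

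Levels were deposited by the authors as a fraction from 0 to 1, with 1 combined value per group, and are given in percent. The study's methods state a genome-wide coverage for the samples as a whole, but the tables give no read number per region, p-value or value per rat. No interval could therefore be set on a level, and the permutation tests foreseen for values per sample were not made. Differences were computed here from the levels. The tables also hold the authors' own differences, which were not used, and a DSS score, areaStat. The areaStat score deposited by the authors was used only to see how the list was made: all 9996 annotated CHH regions were among the 10000 with the largest absolute score, and 135827 CHH regions of the full list were not annotated. The study's methods state a limit of 10 points, whereas the smallest listed difference was 2.00 points, so the regions were kept as listed. A table of average gene profiles and a reduced region list were not used.

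Regions were selected by symbol and counted with python 3.11.15 and pandas 2.3.3. The counting was tested on simulated data. Genes named with their values were those with a CG region at a promoter or start or a hypomethylated CG region, those of the 5 largest differences of each direction and context, those with at least 4 regions, and the gene with the most regions in each family. Other members were added to account for every gene. Some genes of the list of other pathway genes are not reported here by name. Members, lists and rules were chosen with earlier results of these data known. All 54 symbols were found in RefSeq. The RefSeq tables (GRCr8) gave only gene numbers and promoter windows: of 13 genes with a promoter or start region, 12 had a window, and Jak1 is named only. Alternatives covered size, cytosine number, context, islands, repeats, symbols, joining within 1 kb and leaving out single genes.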

Additional observations from a re-analysis of the deposited data

How the results depend on the processing

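With a difference of at least 10 points, 25 regions in 21 genes were left, and 96.0% of them were hypermethylated. The share was also 96.0% in CG regions alone. Among CG regions it was 100% for the 7 outside islands, for the 24 without a repeat and without Traf3, whose region was the only hypomethylated one. The median difference of the 7 CG regions outside islands was 19.8 points. Leaving out repeats and leaving out Traf3 gave the same 24 CG regions. The other 22 of 30 alternatives left counts and medians within 1.5 times, and shares within the 95% Wilson interval, of the values reported. That interval takes regions as independent, which those of 1 gene or cluster are not. The alternatives were also drawn from the same regions and the same rats. It served only as a yardstick and does not measure variation between rats. The smallest share was 71.9%, in CHH regions. No paired analysis was possible because rats of 1 group share 1 deposited level, and for the same reason no replicate was left out in turn. Read numbers per region were not in the tables, so the counting error of a level, such as that of the 5 cytosines of Nfkb1, could not be given.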
